A study of Mus musculus with 2 samples.

Results

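The cells described here are the Apoe-high, Mki67-low cells of primary neural stem cell cultures from the subventricular zone (SVZ), the germinal layer along the lateral ventricles of the mouse brain. They were chosen by their own expression values: among barcodes with at least 5000 unique molecular identifiers (UMIs, counted RNA molecules) and at most 20% mitochondrially encoded UMIs, a member had Apoe at 500 CPM or more (UMIs per 1000000 UMIs of the barcode) and at most 1 Mki67 UMI. This gave 683 members of 7430 kept barcodes, out of 9882 in all. The 372 young members were 9.88% of 3766 kept barcodes (95% Clopper-Pearson interval 8.94 to 10.9), and the 311 aged members were 8.49% of 3664 (7.61 to 9.44).

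Cells came from C57BL/6 mice aged 2 months (young) or 15 to 18 months (aged), with SVZ tissue of 5 mice pooled per library, and were kept in proliferation medium before droplet capture with the 10x Genomics 3′ version 3 chemistry. There was 1 library per age, so age cannot be told apart from culture, pool or library, and no test or p-value was possible for any comparison. Intervals are at 95% and cover counting error only. Values are CPM of the UMIs summed over a class of barcodes, and a ratio of CPM has an exact conditional binomial interval.

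Apoe encodes apolipoprotein E, the main lipoprotein of brain astrocytes, which Abca1 loads with cholesterol at the cell surface. Quiescent SVZ stem cells share many genes with astrocytes, such as those for water and ion channels, glutamate uptake and lipid metabolism. They leave the resting state by enlarging ribosome production and entering the cell cycle, and Mki67 is a protein of cycling nuclei.

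Members of the 2 libraries together held 9523476 young and 9205133 aged UMIs, with a median of 25596 and 28340 UMIs per barcode against 23990 and 25270 in the other kept barcodes. Their median mitochondrial share was 13.2% and 14.0%, against 9.08% and 9.03% in the others, and their median share of ribosomal protein UMIs was 10.8% and 11.5%, against 14.9% in both. The part of these shares in the differences below was not tested. The libraries shared 4 barcode sequences, and 0 of them were members of both.

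The Apoe condition cut through a continuous range. In barcodes with at most 1 Mki67 UMI, 46 young and 49 aged barcodes lay just outside it at 400 to 500 CPM, and 43 and 51 lay just inside at 500 to 600 CPM. Just outside, Abca1 was at 26.7 CPM in young and 32.0 in aged barcodes, and just inside it was at 64.6 and 39.0 CPM. Slc1a3, the glutamate transporter GLAST, was at 435 and 682 CPM outside and at 499 and 811 CPM inside. The members are thus a range of Apoe levels set by the limit, and no cell type was defined by clustering.

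**Figure D1:**
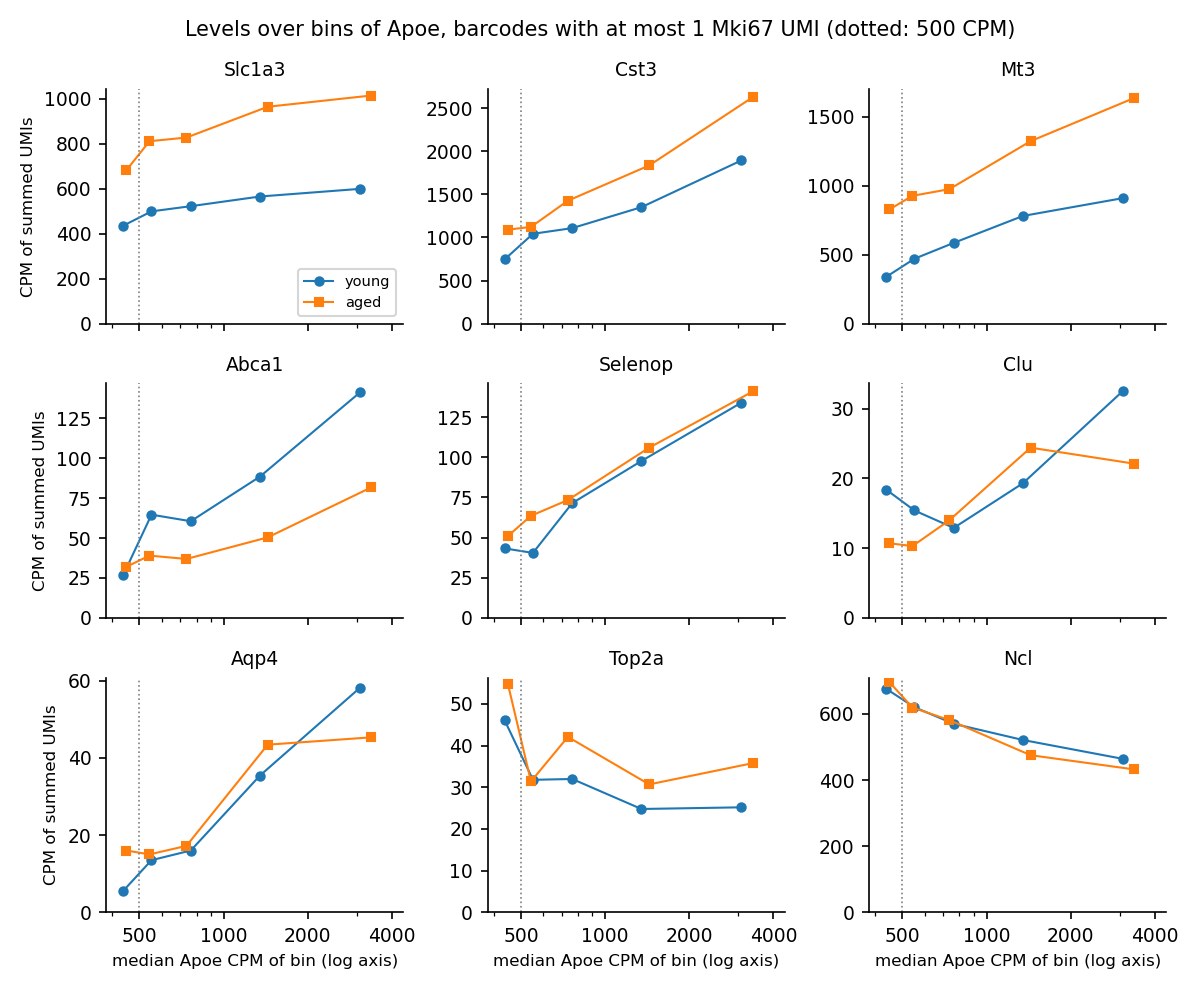
CPM of 9 genes (vertical axes, linear) over bins of Apoe (horizontal axis, median Apoe CPM of the bin, log scale) in barcodes with at most 1 Mki67 UMI, for the young and aged library, with the condition at 500 CPM dotted. Abca1 was at 141 CPM in young and 81.7 in aged barcodes with Apoe at 2000 CPM or more, while Ncl was lower there than in the bins below.

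Above the limit the levels went on changing with Apoe. In barcodes with Apoe at 2000 CPM or more, 85 young and 58 aged, Selenop, a secreted selenium carrier, was at 134 and 141 CPM, against 40.5 and 63.6 CPM in barcodes at 500 to 600 CPM. Aqp4, the astrocyte water channel, was at 58.1 and 45.3 CPM against 13.5 and 15.0. Ncl, the nucleolar protein nucleolin, was lower at the top of the range, at 464 and 432 CPM against 620 and 619. The median mitochondrial share was also higher there, at 15.7% and 16.1% against 12.2% and 13.5%, and its part in these levels was not tested.

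Against the other kept barcodes, 248 of 8423 compared genes (2.94%) were at least 2-fold higher in members of both libraries, and 525 (6.23%) were at least 2-fold lower. At any size, 3015 genes (35.8%) were higher in both libraries and 4451 (52.8%) lower. A gene was compared when it reached 10 CPM in members or others of both libraries, and the log2 ratios used CPM plus 1. Since the members were chosen on Apoe and Mki67, this whole contrast describes the choice and supports nothing by itself. With at most 10% mitochondrial UMIs, 39 young and 31 aged members were left, and 156 genes were 2-fold higher and 317 lower. Apoe itself, used by the rule, was at 1644 CPM in young and 1589 in aged members, against 150 and 151 in the others. Mki67, also used, was at 5.46 and 8.47 CPM against 507 and 521.

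**Figure D2:**
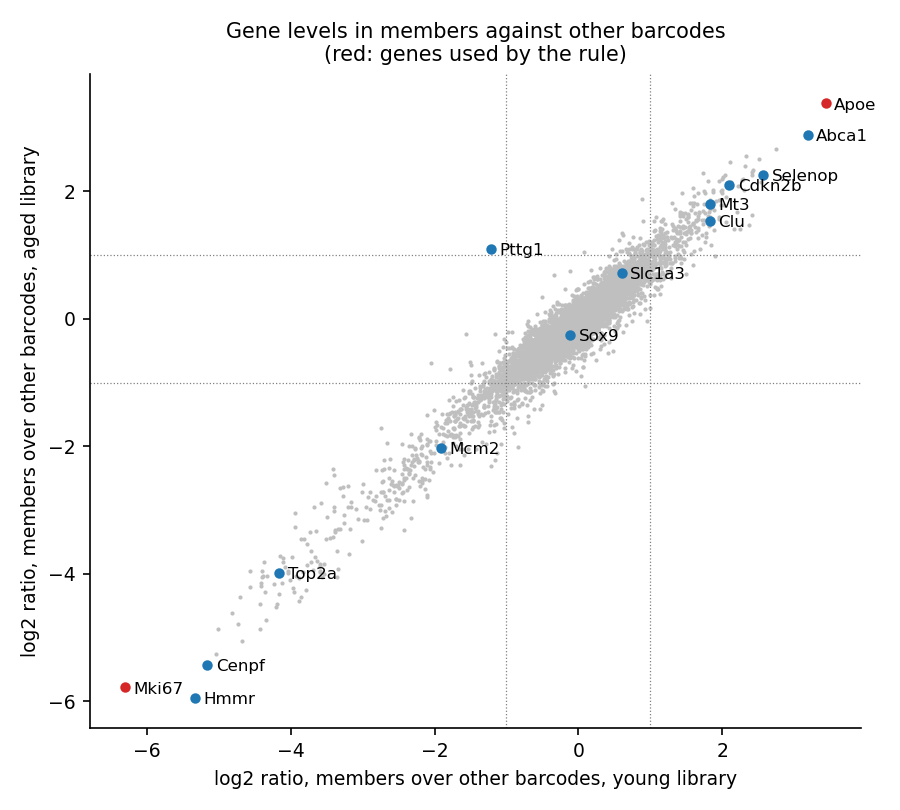
Log2 ratio of members to other barcodes for each compared gene in the young (horizontal axis) and aged library (vertical axis), with red points for the 2 genes the rule used and dotted lines at 2-fold. Abca1, Selenop, Cdkn2b and Mt3 lie at the upper right, cell cycle genes such as Top2a, Cenpf and Hmmr at the lower left, and Pttg1 lies on opposite sides of 0 in the 2 libraries.

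Abca1 was among the 12 highest genes. This cholesterol exporter (GRCm38, chr4:53030787-53159895, minus strand), was at 88.6 CPM in young members and 8.79 in young others, a ratio of 10.1 (9.13 to 11.1). In the aged library it was at 50.8 against 5.99 CPM, a ratio of 8.49 (7.48 to 9.63). Of 10 compared lipoproteins and lipid transporters, Apoe among them, 8 were higher in both libraries and 3 at least 2-fold. All compared genes had shares of 35.8% and 2.94%. Abcg1, a related exporter, was scarce, at 2.63 CPM in young members against 0.482 in others and at 1.52 against 0.311 in the aged library.

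The genes that make cholesterol did not share this. Of 21 compared cholesterol synthesis genes, 4 were higher and 11 lower in members of both libraries, with median log2 ratios of -0.04 and -0.13, where all compared genes had -0.09 and -0.13. Acat2, which joins acetyl-CoA units at the start of the pathway, was lower, at 49.2 against 88.9 CPM in the young and 42.9 against 91.1 in the aged library. Of 9 ApoE receptors and trafficking genes, 3 were higher and 5 lower in both libraries, shares near the 35.8% and 52.8% over all compared genes. Lrp1, an ApoE receptor, was at 84.9 against 45.9 and 70.0 against 47.2 CPM.

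Genes that burn fatty acids were higher throughout their list. All 21 compared fatty acid oxidation genes were higher in members of both libraries, against 35.8% of all compared genes. Of the 21, 3 were at least 2-fold higher, against 2.94%, and the median log2 ratios were 0.58 and 0.64. Acadvl, the very long chain acyl-CoA dehydrogenase, was at 91.0 against 43.5 CPM in the young and 92.2 against 43.6 in the aged library. Nuclear-encoded oxidative phosphorylation genes were likewise higher in 43 of 43, with smaller median log2 ratios of 0.43 and 0.55 and 0 genes at 2-fold. Per barcode, their summed level had a median of 33459 CPM in young members and 37882 in aged members, against 23784 and 25403 in the others. Chchd10, a protein of the mitochondrial cristae, was at 149 against 29.9 CPM in the young and 236 against 51.1 in the aged library.

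Lysosomal genes were higher in 21 of 22, against 35.8% of all compared genes, with median log2 ratios of 0.76 and 0.74. Of the 22, 4 were at least 2-fold higher, against 2.94%. The protease Ctsd was at 501 against 216 CPM in young and 459 against 213 in aged barcodes. The protease Ctsh was far lower in level, at 25.5 against 6.23 and 20.3 against 4.26 CPM. Cst3, a secreted inhibitor of cysteine proteases such as Ctsh, was at 1360 against 508 CPM in the young library and 1758 against 674 in the aged.

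The label of the cells as quiescent and astrocyte-like was set beside markers, with a mixed outcome. Of 38 listed astrocyte and quiescent stem cell markers, 32 reached the 10 CPM needed for comparison, Apoe among them. Some, such as Aqp4 and Clu, reached it only in members, while Hopx and Gfap did not reach it. Of the 32, 31 were higher in members of both libraries and 20 at least 2-fold, with median log2 ratios of 1.23 and 1.22. The shares over all compared genes were 35.8% and 2.94%. Since members were chosen on Apoe, these counts describe the choice. Aqp4 was at 31.7 against 3.86 CPM in the young and 31.2 against 4.09 in the aged library. Clu, the lipoprotein clusterin, was at 19.7 against 4.82 and 18.5 against 5.69 CPM. Slc1a3 differed least of the 4 markers given for these cells, at 551 against 363 and 908 against 551 CPM. Slc4a4, a bicarbonate transporter of astrocytes, was at 335 against 99.4 and 348 against 86.2 CPM. Gja1, the gap junction protein connexin 43, had ratios of 2.81 (2.53 to 3.11) and 3.28 (2.96 to 3.63).

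Other defining markers were scarce or not higher. Gfap, the intermediate filament of mature astrocytes and resting stem cells, was low in level but higher in members. It was at 4.41 against 0.553 CPM in the young library, a ratio of 7.98 (5.13 to 12.4), and at 3.15 against 0.489 in the aged, a ratio of 6.44 (3.89 to 10.5). Gjb6, connexin 30, had 0 UMIs in members of both libraries, and Thbs4 was at 0.105 and 0.217 CPM. Hopx, a marker of quiescent stem cells, was lower in members, at 3.05 against 9.71 CPM in the young and 2.50 against 4.97 in the aged library. Sox9, a glial regulator, was at 138 against 149 and 116 against 138 CPM.

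Markers of activated stem cells and progenitors remained high. Egfr, the growth factor receptor of activated SVZ stem cells, was at 162 CPM in young and 194 in aged members, against 148 and 174 in the others. Nes was at 581 and 565 CPM against 647 and 621, and Olig2 at 460 and 320 against 521 and 438. Ccnd1, the cyclin of growth factor stimulated cells, was at 2248 and 2042 CPM against 1814 and 1770. Of 18 compared markers of this list, 4 were higher and 12 lower in both libraries, against 35.8% and 52.8% of all compared genes. The members are therefore called here by the rule, as Apoe-high, Mki67-low cells.

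Markers of other cell types were low or at 0. Of 16 microglia and macrophage markers, 10 had 0 UMIs in members, among them Cx3cr1, Csf1r, C1qa, Trem2, Tyrobp and Aif1, and the list summed to 33.6 CPM in young and 28.0 in aged members, against 26.2 and 20.6 in the others. Ependymal markers summed to 32.0 and 36.4 CPM against 11.9 and 10.8, with Rarres2 the most abundant and Foxj1 at 9.14 and 10.5 CPM in members. Pericyte markers summed to 46.5 and 54.9 CPM against 33.8 and 46.3, with Pdgfrb and Vtn at 0, and endothelial markers to 415 and 364 against 327 and 305, with Cldn5 and Cdh5 at 0. Choroid plexus markers summed to 22.5 and 19.6 CPM against 12.6 and 15.1. The summed fibroblast markers, at 2996 and 3042 CPM against 1312 and 1249, were mostly Igfbp2, while Col1a1, Col1a2, Col3a1, Dcn and Lum were at 0.

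Neural lists of other stages were also compared. Neuroblast markers summed to 122 CPM in young and 86.6 in aged members, against 128 and 114 in the others, with Dlx5 at 0. Mature neuron markers summed to 685 and 700 CPM against 716 and 799, of which Map2 was the most abundant. Oligodendrocyte precursor markers summed to 3416 and 2586 CPM against 2888 and 2644, and mature oligodendrocyte markers to 224 and 117 against 117 and 75.2, with Mog and Mag at 0.

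Channels and pumps had median log2 ratios of 1.30 and 1.21, with 7 of 13 compared genes at least 2-fold higher, against 2.94% of all compared genes. Kcnn2, a calcium-activated potassium channel of that list, was under 10 CPM in the aged library and so not among the 13. It was at 11.8 against 2.93 CPM in the young library, a ratio of 4.01 (3.18 to 5.04). In the aged library it was at 6.84 against 2.63 CPM, a ratio of 2.60 (1.94 to 3.44). Outside that list, Ttyh1, a membrane protein of glia, was at 69.9 against 13.5 and 78.9 against 16.4 CPM. Gria1, a glutamate receptor subunit, was at 94.5 against 14.8 and 74.0 against 14.5 CPM, whereas Gria2 was at 246 against 262 and 322 against 355. Abat, which breaks down GABA, was at 52.3 against 10.5 and 60.1 against 13.5 CPM.

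The metallothioneins, small proteins that bind zinc and copper, differed among themselves. Mt3, the form typical of brain, was at 711 CPM in young members and 199 in young others, a ratio of 3.57 (3.47 to 3.67). It was at 1216 against 349 CPM in the aged library, a ratio of 3.49 (3.41 to 3.56). Mt1 differed less, at 1020 against 743 CPM in the young and 1232 against 824 in the aged library. Mt2 was at 79.7 against 85.2 CPM in the young and 149 against 114 in the aged library, so that its ratio lay on both sides of 1.

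The 250 bases before a RefSeq start of each of these 3 neighbouring genes are shown because their levels differed between members and others to unlike extents. They are RefSeq windows on GRCm38.p6, 5′ to 3′ on the gene's strand, and capitals mark matches to the core of the metal response element, TGCACNC or TGCGCNC, on either strand.
Mt1, chr8:94178839-94179088, plus strand: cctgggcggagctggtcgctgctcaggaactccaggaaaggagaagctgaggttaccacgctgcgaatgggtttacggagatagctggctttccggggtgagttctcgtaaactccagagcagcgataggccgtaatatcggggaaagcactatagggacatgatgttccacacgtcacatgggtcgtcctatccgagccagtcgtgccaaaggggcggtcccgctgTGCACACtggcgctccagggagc
Mt2, chr8:94172368-94172617, plus strand: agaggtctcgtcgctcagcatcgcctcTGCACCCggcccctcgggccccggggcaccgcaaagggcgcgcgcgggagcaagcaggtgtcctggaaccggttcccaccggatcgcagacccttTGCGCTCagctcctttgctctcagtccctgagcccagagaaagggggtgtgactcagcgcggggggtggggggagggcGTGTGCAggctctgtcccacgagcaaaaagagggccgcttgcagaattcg
Mt3, chr8:94152357-94152606, plus strand: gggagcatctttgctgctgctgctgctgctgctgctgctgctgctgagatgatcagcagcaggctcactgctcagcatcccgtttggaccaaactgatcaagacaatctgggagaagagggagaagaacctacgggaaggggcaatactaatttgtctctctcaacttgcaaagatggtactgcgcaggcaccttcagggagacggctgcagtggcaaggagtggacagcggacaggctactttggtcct
The Mt1 window held 1 match, the Mt2 window 3 and the Mt3 window 0, and 21.4% of 32851 windows of this length held at least 1. These counts hold for the windows only. The Mt2 window ended at 94172617, short of the GENCODE gene start at 94172664, and bases beyond a window were not searched. A match is a description of letters and not a binding site.

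Cell cycle genes were lower in members, which were chosen for little Mki67. Of 30 genes of G2 and mitosis, 29 were at least 2-fold lower in members of both libraries, with median log2 ratios of -4.14 and -4.08. Over all compared genes, 52.8% were lower and 6.23% at least 2-fold lower. Hmmr, a spindle protein, was at 3.47 against 179 CPM in the young library and 2.06 against 188 in the aged, so that others exceeded members 51.7-fold (36.8 to 75.1) and 91.3-fold (58.5 to 152). Cenpf, a kinetochore protein, was at 12.2 against 469 and 11.0 against 517 CPM. Cenpe, a kinetochore motor, was at 4.73 against 187 and 4.24 against 200 CPM. The exception was Pttg1, the separase inhibitor securin, at 42.7 CPM in young members against 101 in others and at 67.0 against 30.7 in the aged library.

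Replication genes were lower as well, in 28 of 28 and at least 2-fold in 27, with median log2 ratios of -2.19 and -2.23. Against Apoe-low barcodes with at most 1 Mki67 UMI, the median log2 ratios were -1.44 and -1.31 for this list and -0.71 and -0.59 for G2 and mitosis, where all compared genes had -0.08 and -0.13. Mcm2, a subunit of the replicative helicase, was at 21.9 against 85.0 CPM in the young and 19.9 against 83.7 in the aged library. The summed level of this list per barcode had a median of 281 CPM in young and 268 in aged members, against 1994 and 1847 in others, but a few members were high, with a 95th percentile of 2111 and 2184 CPM. For the mitotic list the 95th percentile of members was 753 and 897 CPM, against 15127 and 15409 in others.

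The windows before the mitotic genes Hmmr, Cenpf and Cenpe are shown because these genes were among the lowest. Capitals mark the CCAAT box, CCAAT on either strand. In all, 3 motifs were searched, each chosen with the genes' levels known. The first tried for these genes was the cell cycle homology region, TTTGAA or TTCGAA, which had 0 matches in each of the 3 windows, and the CCAAT box was added after that.
Hmmr, chr11:40733438-40733687, minus strand: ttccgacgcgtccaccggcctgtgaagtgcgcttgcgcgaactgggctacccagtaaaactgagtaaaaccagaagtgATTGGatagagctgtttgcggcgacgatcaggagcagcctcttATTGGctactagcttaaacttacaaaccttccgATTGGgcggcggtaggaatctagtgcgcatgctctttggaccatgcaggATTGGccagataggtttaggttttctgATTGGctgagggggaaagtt
Cenpf, chr1:189688087-189688336, minus strand: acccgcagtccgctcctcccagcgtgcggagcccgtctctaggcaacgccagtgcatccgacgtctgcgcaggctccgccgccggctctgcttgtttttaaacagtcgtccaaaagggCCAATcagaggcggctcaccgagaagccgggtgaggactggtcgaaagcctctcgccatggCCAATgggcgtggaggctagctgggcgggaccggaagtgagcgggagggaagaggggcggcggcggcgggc
Cenpe, chr3:135212313-135212562, plus strand: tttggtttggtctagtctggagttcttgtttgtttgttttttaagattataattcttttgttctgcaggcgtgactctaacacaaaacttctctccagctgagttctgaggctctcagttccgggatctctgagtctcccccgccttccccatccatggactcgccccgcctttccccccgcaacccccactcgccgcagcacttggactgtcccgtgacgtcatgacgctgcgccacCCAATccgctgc
CCAAT occurred 5 times in the Hmmr window, 2 times in that of Cenpf and 1 time in that of Cenpe, and 0 times in those of Mt1, Mt2 and Mt3. At least 1 match was found for 20 of 26 G2 and mitosis genes with a window (76.9%), for 13 of 30 astrocyte and quiescent stem cell markers (43.3%) and for 37.5% of 27025 genes. The cell cycle homology region was found for 10 of the 26 (38.5%) and for 19.6% of all genes. With motifs chosen in this order, these shares are descriptions.

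Inhibitors of the cell cycle differed among themselves. Of 23 compared inhibitors and quiescence regulators, 9 were higher and 11 lower in both libraries, again near the 35.8% and 52.8% over all compared genes. Cdkn2b (chr4:89306299-89311039, minus strand), the CDK4 and CDK6 inhibitor p15, was at 87.0 against 19.6 CPM in the young and 83.0 against 18.6 in the aged library, ratios of 4.44 (4.08 to 4.83) and 4.47 (4.10 to 4.87). Its neighbour Cdkn2a, which encodes p16 and p19, was at 380 against 197 and 193 against 107 CPM. Cdkn2c and Cdkn2d, of the same family, were lower in members, Cdkn2c at 31.8 against 96.9 and 38.5 against 113 CPM, and Cdkn2d at 28.7 against 81.3 and 26.1 against 81.9. Against Apoe-low barcodes with at most 1 Mki67 UMI, Cdkn2d was not lower, at 28.7 against 23.4 and 26.1 against 25.5 CPM, and Cdkn2c was at 31.8 against 42.4 and 38.5 against 50.4. Cdkn1b, the inhibitor p27, was at 43.9 against 74.0 and 52.1 against 84.8 CPM, and Cdkn1c, the inhibitor p57, at 0.840 against 4.29 and 1.19 against 6.27. Ccnd2, a D-type cyclin that promotes entry into the cycle, was higher in members, at 2975 against 1351 and 2483 against 1023 CPM.

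Ribosome biogenesis genes were lower in 25 of 25, against 52.8% of all compared genes, with median log2 ratios of -0.73 and -0.61. Of the 25, 6 were at least 2-fold lower, against 6.23%. Nop58, a protein of small nucleolar particles, was at 72.3 against 207 CPM in the young and 75.7 against 203 in the aged library. Ncl was at 536 against 1137 and 522 against 1132 CPM.

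**Figure D3:**
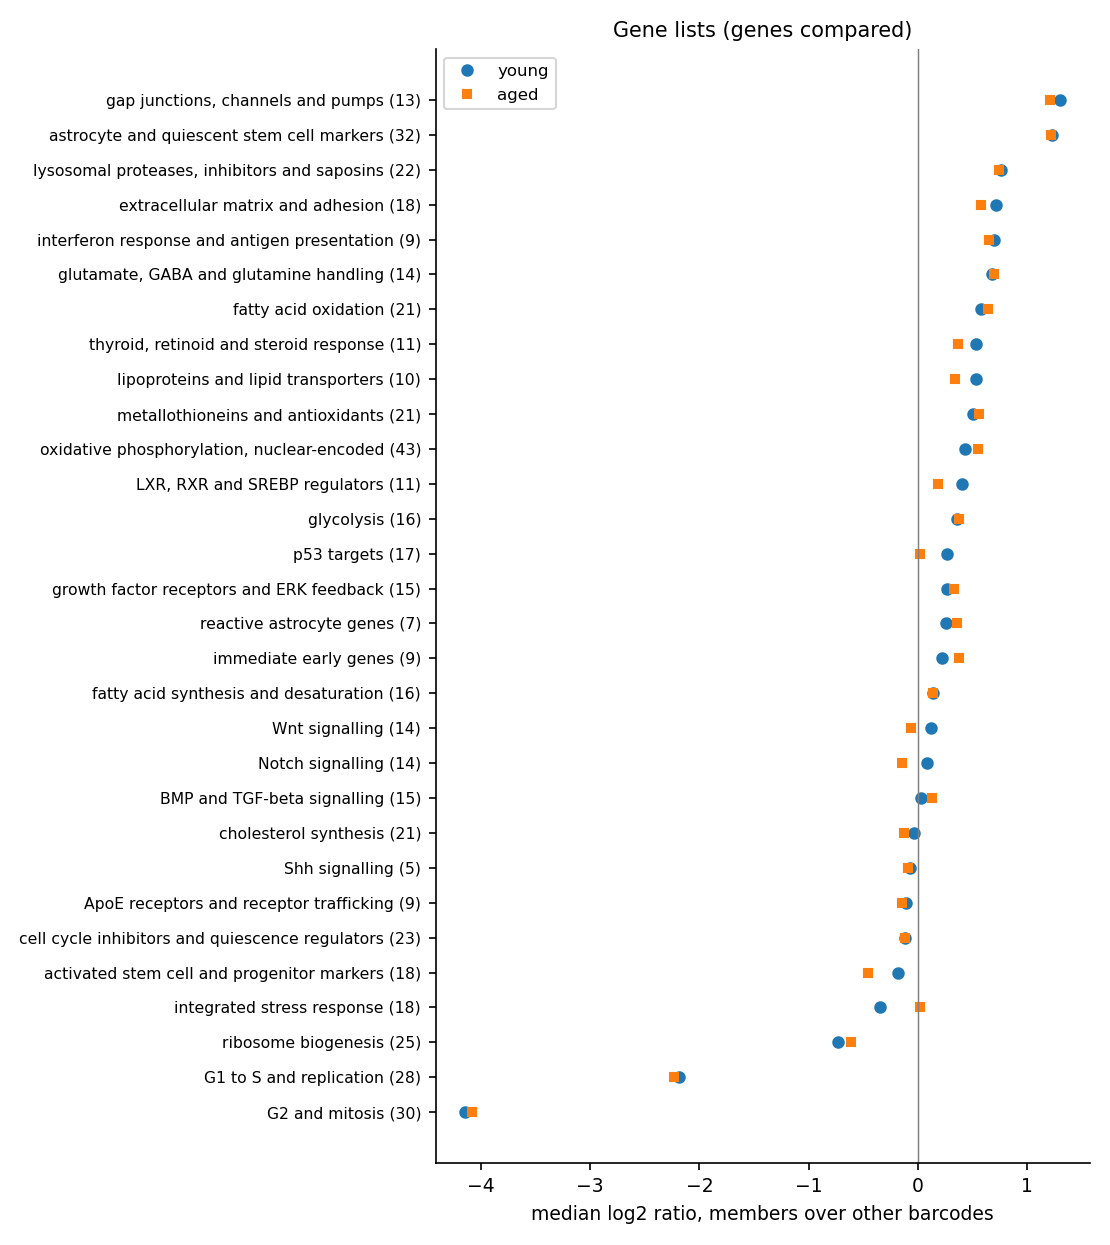
Median log2 ratio of members to other barcodes (horizontal axis) for each gene list, with the number of compared genes in brackets, for the young (circles) and aged library (squares). Lists of channels, markers and lysosomal genes lie to the right and the cell cycle lists lie to the left, at -4.14 and -4.08 for G2 and mitosis.

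The other barcodes were also split by both conditions. Apoe-high barcodes with 2 or more Mki67 UMIs numbered 154 young and 141 aged, Apoe-low barcodes with at most 1 numbered 1016 and 1084, and Apoe-low barcodes with 2 or more numbered 2224 and 2128. Median UMIs were 31236 (young) and 34900 (aged) in the first of these classes and 20912 and 21714 in the second. The part of depth, or of barcodes holding 2 cells, in the levels below was not tested. Clu was at 19.7 CPM in young members and 17.4 in young Apoe-high cycling barcodes, but at 5.43 in Apoe-low barcodes with little Mki67. In the aged library these levels were 18.5, 16.3 and 5.43 CPM. By ratio, Aqp4 and Mt3 in members were also nearer to the Apoe-high cycling barcodes than to the Apoe-low ones. Gja1 was at 41.2 CPM in young and 67.7 in aged Apoe-high cycling barcodes, and at 10.9 and 9.21 in Apoe-low barcodes with little Mki67.

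Over the 32 markers of astrocytes and quiescent stem cells, the median log2 ratio of members to Apoe-low barcodes with little Mki67 was 1.04 and 1.24, and to Apoe-high cycling barcodes 0.37 and 0.23. Abca1 and Cdkn2b differed from both. Abca1 was at 88.6 CPM in young members, 35.1 in Apoe-high cycling and 13.3 in Apoe-low barcodes with little Mki67, and at 50.8, 24.4 and 8.92 CPM in the aged library. Cdkn2b was at 87.0, 31.5 and 33.4 CPM in young and 83.0, 48.2 and 29.1 in aged barcodes. Mcm2 was lower in members than in Apoe-low barcodes with at most 1 Mki67 UMI, at 21.9 against 55.5 and 19.9 against 52.1 CPM. Mki67 was not equal in these classes. It had 1 UMI in 320 of 1016 young and 323 of 1084 aged Apoe-low barcodes, against 52 of 372 and 78 of 311 members. The part of this in the Mcm2 levels was not tested. Compared with those Apoe-low barcodes alone, 161 genes were at least 2-fold higher in members of both libraries and 117 lower.

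**Figure D4:**
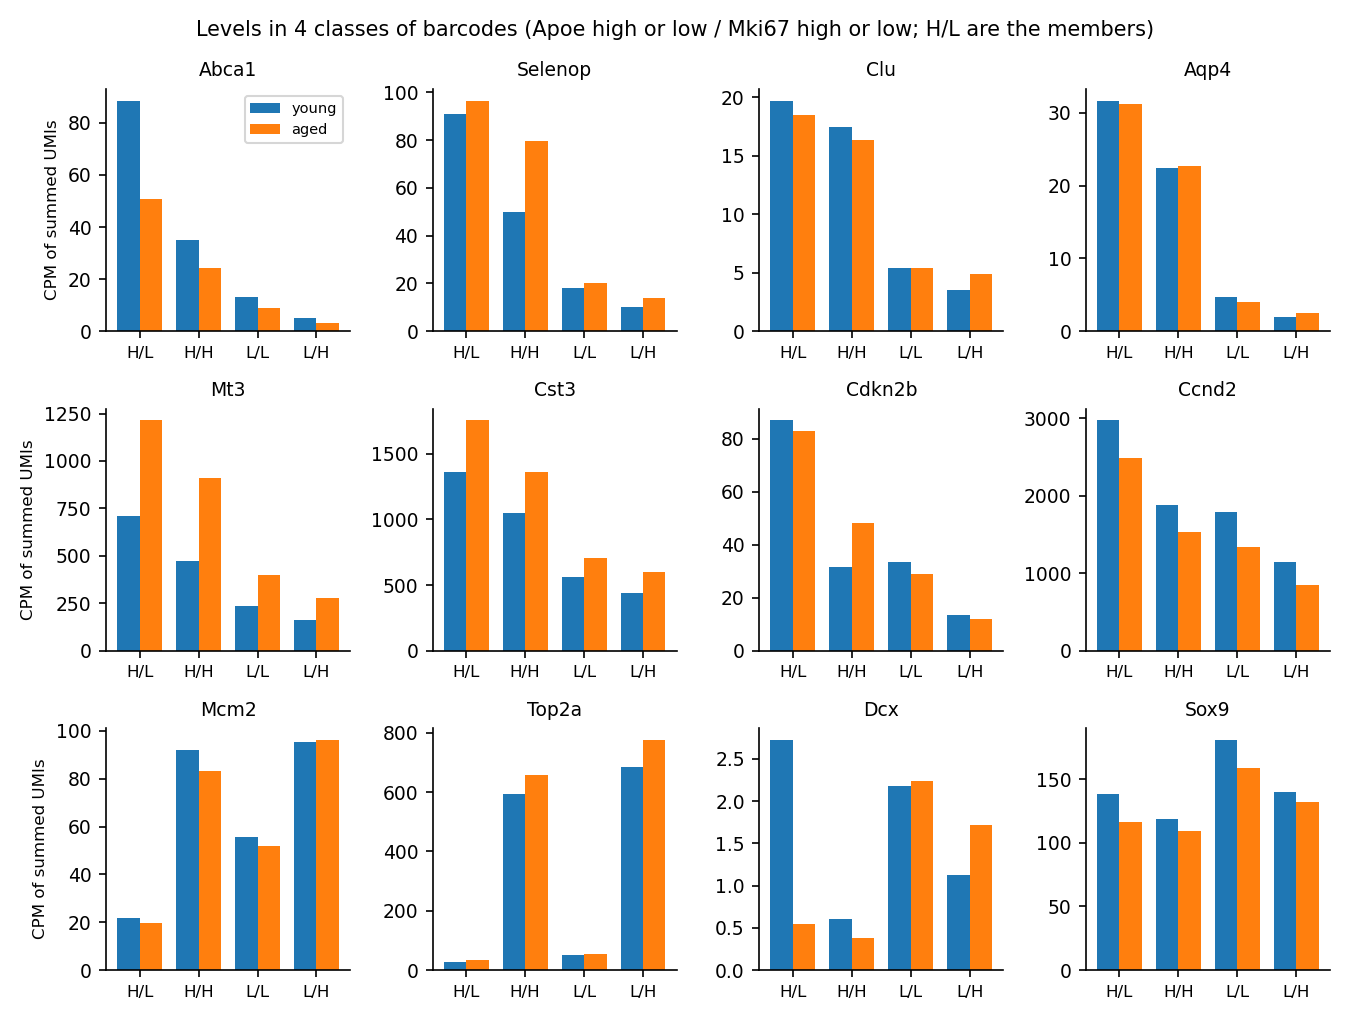
CPM of 12 genes (vertical axes, from 0) in 4 classes of kept barcodes, young and aged: Apoe high with at most 1 Mki67 UMI (H/L, the members), Apoe high with 2 or more (H/H), Apoe low with at most 1 (L/L) and Apoe low with 2 or more (L/H). Clu and Aqp4 are high in both Apoe-high classes, while Top2a is high in both classes with Mki67.

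Each barcode's UMIs were split at random into 2 sets, to part the choice from the measurement. Both sets came from the same cells, so the split bears on counting error only. Cells chosen on the first set, 409 young and 329 aged, had Apoe at 1528 and 1533 CPM in the second, against 149 and 150 in the rest. Their Mki67 in the second set was at 23.2 and 14.5 CPM, against 511 and 523 in the rest. These levels exceeded the 5.46 and 8.47 CPM of members, which were chosen and measured on the same UMIs. The limit of 1 Mki67 UMI was kept for a set with fewer UMIs, so it was looser there. Of the chosen cells, 85.3% and 84.5% were also members. In the second set 82.9% and 81.8% of the chosen cells again reached 500 CPM of Apoe. In that second set, 233 genes were at least 2-fold higher and 469 lower in both libraries.

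Between ages, members were compared with members. Of 8281 genes with at least 10 CPM in members of either library, 40 (0.483%) were at least 2-fold higher in aged members and 84 (1.01%) at least 2-fold lower. At any size, 3870 (46.7%) were higher and 4411 (53.3%) lower. In the other barcodes the same genes gave 20 and 20. With the 39 and 31 members at 10% mitochondrial UMIs or less, the counts in members were 392 and 558. Members are fewer than the others, so their ratios carry more counting error, and the difference between these counts was not tested. The median log2 ratio over all these genes was -0.02 in members and 0.01 in the others. Apoe, used by the rule, was at 1644 and 1589 CPM.

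Hbegf, a ligand of the EGF receptor, was at 71.3 CPM in young members and 250 in aged members, a ratio of 3.50 (3.21 to 3.82). In the others it was at 38.4 and 67.2 CPM, a ratio of 1.75 (1.68 to 1.83). Its level was higher in members than in others in both libraries. Aged members spread widely, with a median of 137 CPM and a 95th percentile of 743 CPM per barcode, against 44.7 and 220 CPM in young members.

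Genes of the integrated stress response and amino acid supply were higher in aged members. Of 18 compared genes of that list, 17 were higher and 4 at least 2-fold, with a median log2 ratio of 0.52 in members and 0.16 in others. Among all genes compared between ages, 46.7% were higher in aged members and 0.483% at least 2-fold. Eif4ebp1, a repressor of cap-dependent translation, was at 43.4 CPM in young and 140 in aged members, a ratio of 3.23 (2.89 to 3.62), against 130 and 165 in the others. Mthfd2, a mitochondrial folate enzyme, was at 19.1 and 55.8 CPM, against 82.3 and 91.6 in others. Asns, asparagine synthetase, was at 60.5 and 135 CPM against 136 and 160. For these 3 genes young members were the class with the lowest level, and aged members lay nearer to the others.

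Other genes higher in aged members were so in the other barcodes too. Wdfy1, an endosomal protein, was at 12.5 CPM in young and 65.5 in aged members and at 10.3 and 57.9 in others. Akr1e1, an aldo-keto reductase, was at 13.8 and 56.4 CPM in members and 11.5 and 40.3 in others. Gmpr, a purine salvage reductase, had ratios of 2.78 (2.44 to 3.18) in members and 2.51 (2.37 to 2.65) in others. Mt3 had ratios of 1.71 (1.66 to 1.76) and 1.75 (1.72 to 1.78). Oxidative phosphorylation genes were higher in 42 of 43, against 46.7% of all genes compared between ages. Their median log2 ratio was 0.23 in members and 0.10 in others.

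Among genes lower in aged members, Igfbp5, which binds insulin-like growth factors, was at 70.2 CPM in young and 20.6 in aged members. Young exceeded aged members 3.40-fold (2.89 to 4.02), and young exceeded aged others 1.84-fold (1.69 to 2.00). Pou3f1, a neural transcription factor, was at 177 and 62.2 CPM in members and 251 and 161 in others. Sparc, a secreted matrix protein, was at 312 and 149 CPM in members, with the same ratio within counting error in others, 2.09 (1.96 to 2.23) and 2.07 (1.99 to 2.16). Trf, transferrin, was at 118 and 45.0 CPM in members and 40.9 and 17.0 in others. Abca1 was also lower in aged members, by 1.74-fold (1.56 to 1.96).

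Immediate early genes, which respond within minutes to stimuli and to cell dissociation, were lower in 11 of 12, with 5 at least 2-fold lower. Their median log2 ratio was -0.82 in members and -0.70 in others. Among all genes compared between ages, 53.3% were lower in aged members and 1.01% at least 2-fold lower. Fos was at 106 CPM in young and 32.9 in aged members, and at 47.6 and 21.2 in others. Of 19 p53 target genes 18 were lower in aged members, against 53.3% of all these genes, with a median log2 ratio of -0.38 against -0.21 in others. Cdkn2a was at 380 and 193 CPM in members and 197 and 107 in others, and so was lower in both aged classes. Cdkn1a, the inhibitor p21, was at 594 CPM in members of both libraries.

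Astrocyte and quiescent stem cell markers had no common direction between ages, with 14 of 32 higher and 18 lower in aged members and a median log2 ratio of -0.03. These shares are near the 46.7% and 53.3% over all genes compared between ages. Slc1a3 was at 551 CPM in young and 908 in aged members, and Aldoc, a brain aldolase, at 116 and 220. Aqp4 was at 31.7 and 31.2 CPM. Olig1, a regulator of the oligodendrocyte lineage, was at 1260 CPM in young and 611 in aged members, against 1143 and 816 in the others.

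**Figure D5:**
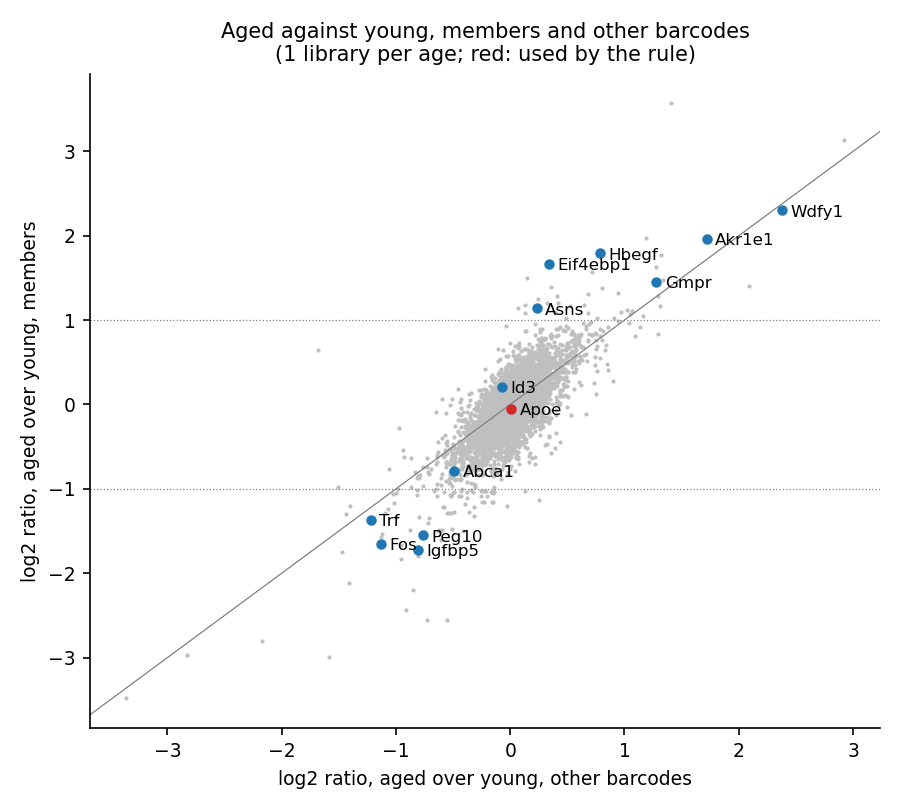
Log2 ratio of aged to young for each compared gene in other barcodes (horizontal axis) and in members (vertical axis), with the diagonal drawn and dotted lines at 2-fold; each age is 1 library. Wdfy1, Akr1e1 and Gmpr lie near the diagonal, Hbegf, Eif4ebp1 and Asns above it, and Igfbp5 and Peg10 below it.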

How the data were processed

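The values deposited by the authors are unnormalized UMI counts. The submitters' processing notes name Cell Ranger 3.0.2 and mm10. Current symbols were found for 27645 of 27998 gene identifiers. The 2 libraries held 97774963 (young) and 101666604 (aged) UMIs, with at least 500 per barcode. Of 5151 young and 4731 aged barcodes, 1315 and 1027 had under 5000 UMIs and 70 and 40 more had over 20% mitochondrial UMIs.

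No doublet caller was run, and an alternative left out barcodes above 3 times the library's median UMIs. UMIs were summed per class and library and scaled to CPM. Mean levels were compared by log2 ratios of CPM plus 1. With 1 library per age, genes were counted by a rule of size (2-fold) and no test was made. The members, the 40 gene lists (12 of cell type markers), the motifs and the comparisons were chosen with earlier results of these data known.

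Named genes were the 12 highest and 12 lowest of each comparison among genes with at least 50 CPM, leaving out mitochondrial and ribosomal protein genes, pseudogenes and unnamed gene models, up to 4 genes of each list with the largest ratio, and a set of markers and regulators whatever their value. Abcg1 and markers at or near 0 fall outside this rule and were chosen after their values were seen. Promoter windows came from RefSeq (GRCm38.p6) and gene positions, 1-based, from GENCODE vM21 (GRCm38). On simulated Poisson counts of 8232 genes (members against others) and 8337 genes (aged against young members), 100% of 3-fold genes and 0% of 1.5-fold genes passed the rule, as did 0 unchanged genes, which covers counting error only. Python 3.11.15, numpy 2.4.6, scipy 1.17.1 and matplotlib 3.10.9 were used. Some genes that the naming rule picked are not reported here.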

Additional observations from a re-analysis of the deposited data

Results flagged for a closer look

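Several named genes had ratios on opposite sides of 1 with counting intervals that did not overlap 1. With 1 library per age, none of these differences was tested. Pttg1 (securin) was lower in young members than in young others and higher in aged members than in aged others, with log2 ratios of -1.21 and 1.10, a difference of 2.32. Seen between ages, its log2 ratio was 0.64 in members and -1.68 in others, which is the same difference of 2.32. Dcx, a neuroblast gene, had log2 ratios of members to others of 0.66 (young) and -0.85 (aged), a difference of -1.51. Its ratios between ages were -1.27 in members and 0.23 in others, again -1.51 apart. Dcx was at 2.73 and 0.543 CPM in members, under the 10 CPM limit of both comparisons. These levels rest on 26 and 5 UMIs, found in 3.76% of 372 young and 1.29% of 311 aged members. The intervals do not cover spread between barcodes.

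Slc7a11, the cystine transporter, had log2 ratios of members to others of -0.34 in young and 0.69 in aged barcodes, 1.03 apart. Peg10 had 0.42 and -0.37, a difference of -0.79, and Olig1 had 0.14 and -0.42, a difference of -0.56. Between ages, Gad1 had log2 ratios of -1.13 in members and 0.25 in others (difference -1.38), Nkd1 -1.03 and 0.13 (-1.16), and Lhfpl3 -0.45 and 0.44 (-0.89). Smaller differences were found for Wnt7b (-0.25 and 0.10, difference -0.35), Id3 (0.21 and -0.07, difference 0.28) and Igfbp2 (0.07 and -0.07, difference 0.14).

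Among barcodes left out for low UMIs or a high mitochondrial share, 255 young and 203 aged barcodes also met the Apoe and Mki67 conditions. In all, 1385 and 1067 barcodes were left out, 1315 and 1027 of them with under 5000 UMIs. In a barcode with few UMIs, 1 Apoe UMI can reach 500 CPM and the Mki67 condition is more easily met. Barcodes under 5000 UMIs are thus not comparable with members. Of barcodes above the mitochondrial limit, 36 young (51.4%) and 21 aged (52.5%) met both conditions.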

How the results depend on the processing

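No paired analysis was possible because each age is 1 library without a replicate number. The share of members in young and aged barcodes was 14.8% and 12.9% with Apoe at 250 CPM, 5.31% and 4.26% at 1000 CPM, 8.50% and 6.36% with 0 Mki67 UMIs, 11.7% and 9.85% after thinning to 5000 UMIs, 1.69% and 1.36% with at most 10% mitochondrial UMIs (39 and 31 members), and 7.08% and 4.84% among barcodes with 5000 to 20000 UMIs.

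Counts of genes 2-fold higher and lower in members were 156 and 317 with at most 10% mitochondrial UMIs, 99 and 235 among genes with at least 50 CPM, 133 and 241 among barcodes with 5000 to 20000 UMIs, and 161 and 117 against others with at most 1 Mki67 UMI. With a pseudocount of 5 CPM, 159 were higher. Counts 2-fold higher and lower in aged members were 392 and 558 at 10% mitochondrial UMIs, 360 and 543 among barcodes with 5000 to 20000 UMIs, 13 and 16 at 50 CPM, 101 and 172 at 1 CPM, and 23 and 39 with a pseudocount of 5. With Apoe at 250 CPM, 53 were lower. The large counts come from 39 and 31, or 77 and 41, members, where counting error is larger.

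Of 85 named genes 2-fold apart between members and others, 26 stayed so in all alternatives, and of 41 between ages, 9. Those under 2-fold in at least 1 alternative included Mt3, Clu, Cst3, Gja1, Ctsd, Slc4a4, Hmmr and Cenpf between members and others. Between ages they included Hbegf, Asns, Mthfd2, Igfbp5, Gmpr, Peg10, Trf and Olig1. Log2 ratios between ages changed sign for Dcx (0.52), Ccn1 (0.26) and Nupr1 (-0.43) at 10% mitochondrial UMIs, and for Ccn1 (0.03) and Fosb (0.43) among barcodes with 5000 to 20000 UMIs. Cdkn2d was at 0.03 against others with at most 1 Mki67 UMI. The cause of these changes was not tested.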
